A study of Mus musculus with 4 samples.

Results

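The mouse mitochondrial genome carries 37 genes, and all 37 were among the 55536 genes of the deposited count table. They were taken by name, as every gene symbol that starts with mt-, a rule that uses no measured value. Earlier results of these data were known when this rule was chosen. All 37 lie on the mitochondrial chromosome of the GRCm38 assembly, where GENCODE M21 annotates 13 protein-coding genes (mRNAs), 2 ribosomal RNA genes (rRNAs) and 22 transfer RNA genes (tRNAs). The RNA came from collagenase-isolated pancreatic islets of male C57BL/6 mice aged 8 weeks, and the libraries were made from polyadenylated RNA with a KAPA mRNA kit. The 2 non-depleted libraries received no further treatment named in the labels, and the 2 insulin-depleted libraries were treated during library preparation with the DepleteX panel of Jumpcode Genomics against insulin. The protocol text also covers single-cell work, and whether the islets of these bulk libraries were dissociated first is not stated. Levels are in CPM: counts were scaled to a common library total, from which Ins1 and Ins2 were left out, and as CPM per kilobase of gene wherever genes are compared with each other.

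Mitochondrial DNA is transcribed from both strands into long polycistronic RNAs. Nucleases cut these mainly at the tRNAs that lie between the other genes, and the mRNAs and rRNAs that are released receive short poly(A) tails. The mRNAs encode core subunits of respiratory complexes I, III and IV and of the ATP synthase (complex V), while the rRNAs and tRNAs serve their translation inside the organelle. In beta cells, ATP from this chain couples glucose to insulin secretion.

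The 4 libraries held 50605417 and 60528485 counts in non-depleted replicates 1 and 2, and 19316173 and 65030111 counts in insulin-depleted replicates 1 and 2. Ins1 and Ins2 together took 4.14% and 3.97% of all counts in the non-depleted libraries and 0.195% and 0.264% in the insulin-depleted ones, so the labels and the targeted genes go together. Ins1 fell by 6.52 (SE 0.19, edgeR adjusted p = 0.00236) and Ins2 fell by 3.87 (SE 0.17, edgeR adjusted p = 0.0114) on the log2 scale. Libraries that carry the same replicate number were closer to each other than libraries of the same group: a chi-square per degree of freedom over genes was 2.84 and 2.69 between groups at replicate numbers 1 and 2, against 50.2 within the non-depleted and 32.5 within the insulin-depleted group. The labels call the replicates biological, yet all 4 column names of the table carry the same pair of codes, so separate animals are not established and the p-values here speak only of the spread among 4 libraries. A tag that can be read as size selection stands in the column names of the non-depleted libraries only, and that difference cannot be told apart from the depletion.

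Most of the genes are packed with few bases between neighbours, and 9 pairs of neighbours overlap. A wider gap lies between mt-Tn, which ends at chrM:5159, and mt-Tc, which starts at chrM:5192. No member lies beyond mt-Tp, which ends at chrM:15422. The longest overlap, 43 bases, joins mt-Atp8 and mt-Atp6, which encode a small and a large membrane subunit of the ATP synthase. The whole of mt-Atp8 (chrM:7766-7969, plus strand, GRCm38) and the first 90 bases of mt-Atp6 (chrM:7927-8016, plus strand) are shown because reads in the shared stretch, in capitals, cannot be given to either gene from their sequence.
mt-Atp8: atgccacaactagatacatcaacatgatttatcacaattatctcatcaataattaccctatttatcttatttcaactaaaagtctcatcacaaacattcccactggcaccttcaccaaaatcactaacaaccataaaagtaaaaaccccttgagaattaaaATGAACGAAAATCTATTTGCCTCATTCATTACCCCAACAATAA
mt-Atp6: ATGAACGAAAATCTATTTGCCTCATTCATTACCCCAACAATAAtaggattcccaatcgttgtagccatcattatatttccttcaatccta
The capitals open with the start codon of mt-Atp6 and close with the stop codon of mt-Atp8, in another reading frame.

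The other overlaps of coding genes are mt-Atp6 with mt-Co3 (1 base, same strand), mt-Nd4l with mt-Nd4 (7 bases, same strand) and mt-Nd5 with mt-Nd6 (14 bases, opposite strands). The last 60 bases of mt-Nd5 (chrM:13506-13565, plus strand) and of mt-Nd6 (chrM:13552-13611, minus strand) are shown with the overlap in capitals, each read in its own 5′ to 3′ direction.
mt-Nd5: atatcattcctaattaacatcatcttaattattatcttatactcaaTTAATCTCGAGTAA
mt-Nd6: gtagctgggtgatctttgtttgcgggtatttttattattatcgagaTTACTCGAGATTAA
The capitals are reverse complements, so both genes end inside the other. How the authors' counting used strand is not given in the sources used here, and reads in these 14 bases therefore have no certain gene.

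Of the 13 coding sequences, 10 end in a whole stop codon and 3 end in a bare T. In these 3 the stop codon is completed by the poly(A) tail, a textbook feature of animal mitochondria. The last 60 bases of mt-Co3 (chrM:9331-9390), mt-Nd4 (chrM:11485-11544) and mt-Cytb (chrM:15229-15288), all on the plus strand, are shown with the bare T in capitals.
mt-Co3: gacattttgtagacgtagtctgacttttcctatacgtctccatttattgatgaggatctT
mt-Nd4: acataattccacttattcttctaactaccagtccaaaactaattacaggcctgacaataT
mt-Cytb: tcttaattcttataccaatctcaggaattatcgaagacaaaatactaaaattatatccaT
At the other end, 9 of the 13 start with ATG and 4 with another start codon of the mitochondrial code (GTG in mt-Nd1, ATA in mt-Nd2, ATT in mt-Nd3 and ATC in mt-Nd5).

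Mitochondrial RNA made up about the same part of the counts outside insulin with and without insulin depletion. All 37 genes together took 2.05% of the counts outside insulin in replicate 1 of the non-depleted group (2.051 to 2.059%, exact 95% interval after Clopper and Pearson) and 2.32% in its replicate 2 (2.319 to 2.327%). In the insulin-depleted libraries the share was 2.06% (2.053 to 2.066%) in replicate 1 and 2.32% (2.318 to 2.325%) in replicate 2. The groups overlapped fully, and the replicate 2 libraries were the higher in both. The intervals cover at most counting error, since these PCR-amplified reads have no molecular identifiers in the sources used here. They also take each count as an independent draw. In genes outside the mitochondrial genome, 81.5% of values from 2 to 9 counts were even, so counts may not be independent and the intervals may be too narrow. The group means were 21888 ± 1897 CPM (SD, n = 2) without and 21905 ± 1855 CPM (SD, n = 2) with depletion (exact two-sided permutation test, p = 1.00), in a design whose smallest possible p is 0.333. In bulk RNA, fewer cells of a type and less RNA per cell cannot be told apart.

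Nearly all of the mitochondrial counts came from mRNAs. The libraries were made from polyadenylated RNA, so the class shares are those of captured RNA and not of the whole mitochondrial RNA. The 13 mRNAs gave 95.3% and 95.0% of mitochondrial counts in the non-depleted libraries and 95.4% and 95.1% in the insulin-depleted ones. The 2 rRNAs gave 4.63% and 4.95%, and then 4.57% and 4.89%. The 22 tRNAs gave 0.0415% and 0.0133%, and then 0.0484% and 0.0150%. In each class the groups overlapped, and the exact permutation p for the difference in share was 0.667 for mRNA, for rRNA and for tRNA alike. In the insulin-depleted group the mRNA share was 0.0527 percentage points higher and the rRNA share 0.057 points lower, and both differences turned sign without non-depleted replicate 2 and without insulin-depleted replicate 1 (to -0.0937 and -0.0882 points for mRNA and to 0.104 and 0.101 points for rRNA).

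**Figure D1:**
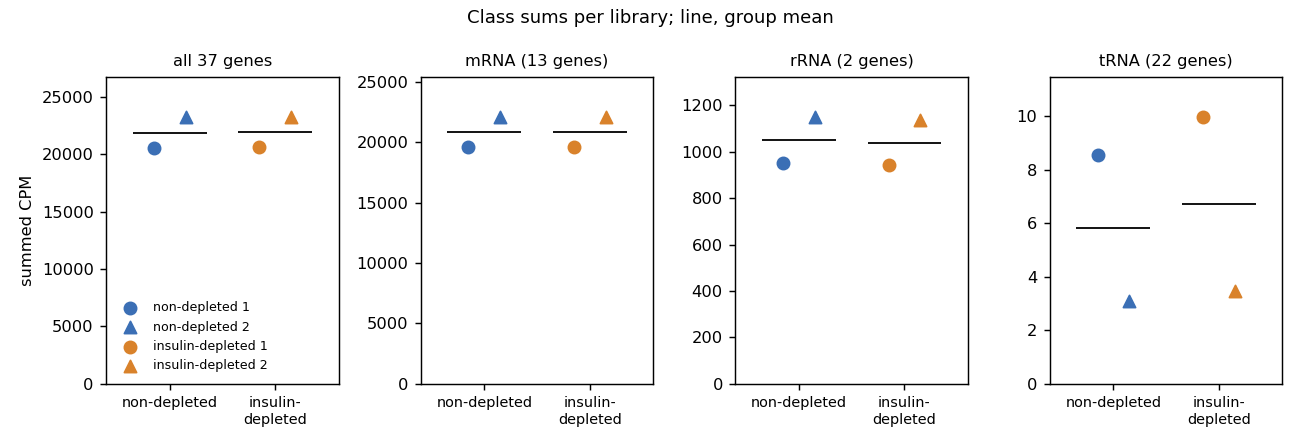
Summed CPM of all 37 mitochondrial genes, of the mRNAs, rRNAs and tRNAs, by group (x axis), 1 point per library with circles for replicate 1 and triangles for replicate 2, and a line at each group mean. The group means lie side by side, at 21888 and 21905 CPM for all genes, while the replicate 2 libraries are higher in mRNA and rRNA and lower in tRNA in both groups.

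The mRNAs fell into a high and a low set, set apart by a wide gap. Per kilobase, the 7 high mRNAs ranged from mt-Nd6 to mt-Co1, and the lowest of them stood 26.7-fold above mt-Co2, the highest of the 6 low ones. The 5 genes with the most counts (mt-Co1, mt-Cytb, mt-Nd5, mt-Nd1 and mt-Nd2) took 88.1% to 88.4% of all mitochondrial counts in each library, and the 6 low mRNAs (mt-Co2, mt-Co3, mt-Atp6, mt-Atp8, mt-Nd3 and mt-Nd4l) took 0.235% to 0.305% together.

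**Figure D2:**
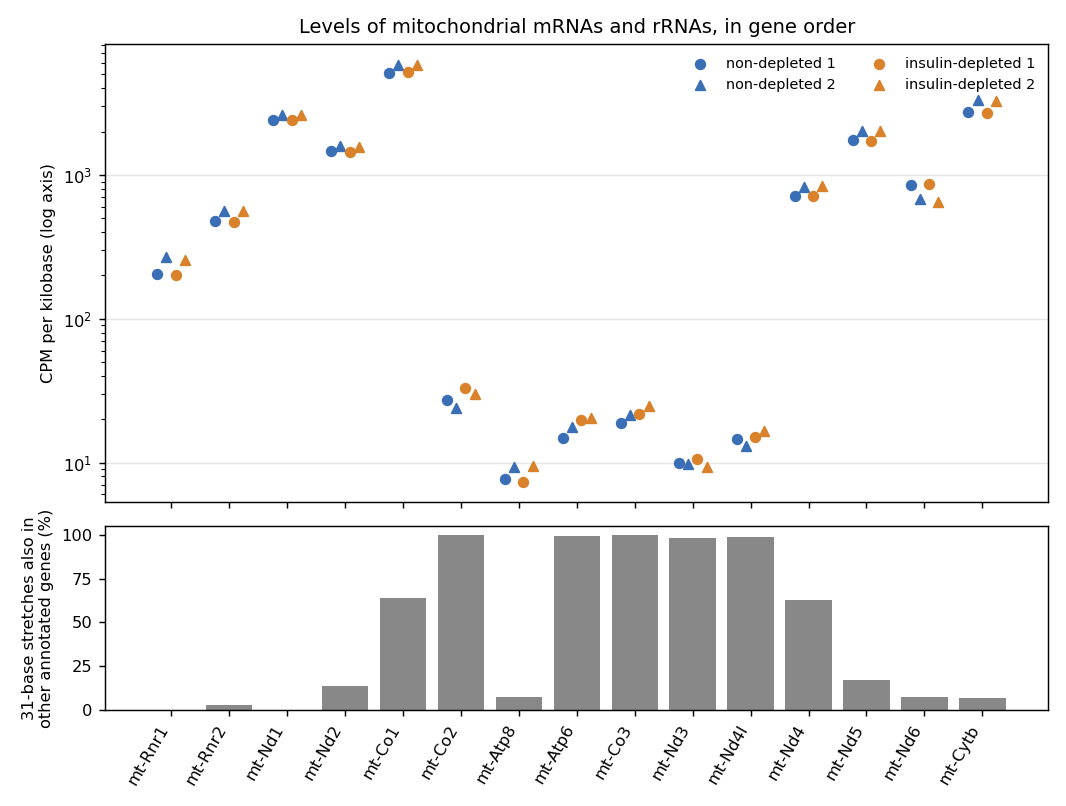
Upper panel, CPM per kilobase (log axis) of the 15 mitochondrial mRNAs and rRNAs in gene order, 1 point per library; lower panel, percentage of each gene's 31-base stretches that also occur in other annotated genes. The 6 low mRNAs sit between 7.37 and 32.8 CPM per kilobase in neighbouring positions, and 5 of them share at least 98.1% of their stretches with other genes.

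Complex IV, cytochrome c oxidase, holds the highest mRNA and also mt-Co2 and mt-Co3, which ranked highest within the low set per kilobase. mt-Co1, its catalytic core subunit, had 7949 and 8938 CPM without depletion (replicates 1 and 2, the order used throughout) and 8081 and 9017 CPM with it, and ranked 4 by mean level among all genes of the table. mt-Co2, the subunit that takes electrons from cytochrome c, had 18.6 and 16.4 CPM without and 22.4 and 20.6 CPM with depletion. mt-Co3, a structural core subunit, had 14.8 and 16.8 CPM without and 17.1 and 19.4 CPM with depletion. Per kilobase, mt-Co1 was counted 159.7 to 241.1 times as highly as mt-Co2, although both come from the same polycistronic RNA and their proteins stand in the enzyme in equal number.

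Complex III has a single mitochondrial gene, mt-Cytb, the cytochrome b that carries its quinone sites. It had 3123 and 3775 CPM in the non-depleted and 3110 and 3724 CPM in the insulin-depleted libraries, and its mean of 3001 CPM per kilobase was the second highest of the 37. In both groups replicate 2 was above replicate 1, and the groups overlapped.

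Complex I, the NADH dehydrogenase, takes 7 of the 13 mRNAs, which all encode membrane-arm subunits. mt-Nd1, at the joint with the peripheral arm, had 2324 and 2485 CPM without and 2321 and 2481 CPM with depletion. mt-Nd5, the subunit at the far end of the membrane arm, had 3184 and 3675 CPM without and 3135 and 3672 CPM with depletion, and mt-Nd2, an antiporter-like subunit, had 1531 and 1662 CPM, then 1495 and 1628 CPM. For these 3 genes the replicate 1 values of the groups lay close together and so did the replicate 2 values. mt-Nd4, a further antiporter-like subunit, had 982.6 and 1134 CPM without and 988.3 and 1154 CPM with depletion. mt-Nd6, the only mRNA on the minus strand and one whose human counterpart lacks the usual tail, had 441.3 and 352.8 CPM without and 448.8 and 338.8 CPM with depletion. It was the only one of the 7 high mRNAs that was lower in replicate 2 in both groups. The small subunits mt-Nd3 and mt-Nd4l were low: mt-Nd3 had 3.46 and 3.41 CPM without and 3.68 and 3.22 CPM with depletion, and mt-Nd4l had 4.35 and 3.85 CPM, then 4.46 and 4.90 CPM.

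Complex V has mt-Atp6, which forms the proton path beside the rotor, and mt-Atp8, a stator subunit. mt-Atp6 had 10.1 and 12.1 CPM without and 13.5 and 13.8 CPM with depletion. mt-Atp8 had 1.57 and 1.89 CPM without and 1.50 and 1.93 CPM with depletion, from 29 to 125 counts a library. Both genes were thus in the low set, and mt-Atp8 had the lowest level per kilobase of the mRNAs.

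Ranked by mean CPM per kilobase over the 4 libraries, the order was mt-Co1 (5499), mt-Cytb (3001), mt-Nd1 (2511), mt-Nd5 (1873), mt-Nd2 (1521), mt-Nd4 (772.6), mt-Nd6 (761.9), mt-Rnr2 (519.1), mt-Rnr1 (233.2), mt-Co2 (28.5), mt-Co3 (21.7), mt-Atp6 (18.2), mt-Nd4l (14.8), mt-Nd3 (9.90) and mt-Atp8 (8.44). The ranges over libraries overlapped between mt-Nd4 and mt-Nd6, between mt-Co2 and mt-Co3, between mt-Co3 and mt-Atp6, between mt-Atp6 and mt-Nd4l, and between mt-Nd3 and mt-Atp8. The ranges of every other pair of neighbours were separate. Within each of the 4 libraries mt-Co2 was nevertheless above mt-Co3, mt-Co3 above mt-Atp6 and mt-Atp6 above mt-Nd4l, while mt-Nd4 was above mt-Nd6 in 2 libraries and mt-Nd3 above mt-Atp8 in 3.

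The rRNAs form the cores of the small (mt-Rnr1) and large (mt-Rnr2) subunits of the mitochondrial ribosome. mt-Rnr1 had 197.0 and 256.4 CPM in the non-depleted and 193.8 and 243.4 CPM in the insulin-depleted libraries. mt-Rnr2 had 753.4 and 892.7 CPM without and 747.7 and 891.2 CPM with depletion. Per kilobase mt-Rnr2 stood 2.10 to 2.33 times as high as mt-Rnr1 in each library, and both stood below all 7 high mRNAs. The libraries were made from polyadenylated RNA, so these are levels of rRNA captured in such libraries and not of the whole rRNA pool.

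The tRNAs, 59 to 75 bases long, were barely counted in these libraries of polyadenylated RNA, which need not mean that they were scarce in the islets. Their summed counts were 414 and 179 in non-depleted replicates 1 and 2 and 192 and 226 in insulin-depleted replicates 1 and 2. Of the 22 tRNA genes, 6 had no count in any library (mt-Tf, mt-Tn, mt-Tk, mt-Tg, mt-Tr and mt-Th), which allows levels of up to 0.0463 to 0.156 CPM at 3 counts a library. Another 9 had 1 to 8 counts over all libraries, and 7 had at least 10 (mt-Tl1, mt-Tq, mt-Tw, mt-Ta, mt-Te, mt-Tt and mt-Tp). Low tRNA counts were mostly even numbers: 14 of the 17 values from 2 to 9 were even, against 81.5% of such values in other genes. Counts may thus not be independent, and the limit drawn at 3 counts a library may be too low.

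The 3 tRNAs with the most counts carry the results on this class, and their sequences are shown as annotated: mt-Tw, which reads tryptophan codons (chrM:4950-5016, plus strand), mt-Tq, which reads glutamine codons (chrM:3772-3842, minus strand), and mt-Tp, which reads proline codons (chrM:15356-15422, minus strand). The last 60 bases of mt-Nd2 (chrM:4892-4951, plus strand), the gene just upstream of mt-Tw, are set beside them. Capitals mark the 2 bases that mt-Nd2 and mt-Tw share and the 3 bases of mt-Tq that overlap mt-Ti on the other strand.
mt-Nd2: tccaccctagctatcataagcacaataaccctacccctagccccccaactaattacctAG
mt-Tw: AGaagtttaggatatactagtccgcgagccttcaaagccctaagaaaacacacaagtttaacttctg
mt-Tq: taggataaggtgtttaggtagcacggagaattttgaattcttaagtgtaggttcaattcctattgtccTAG
mt-Tp: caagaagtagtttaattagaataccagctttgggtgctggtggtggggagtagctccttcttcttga
None of the 31-base stretches of mt-Tw, mt-Tq or mt-Tp occurs in another annotated gene.

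mt-Tw differed between replicate numbers far more than any other member with counts in all 4 libraries. Without depletion it had 209 counts (4.31 CPM) in replicate 1 and 12 counts (0.206 CPM) in replicate 2, and with depletion 87 counts (4.51 CPM) and 11 counts (0.170 CPM). Replicate 1 was thus 20.9-fold higher in the non-depleted and 26.6-fold higher in the insulin-depleted group, while the groups agreed at each replicate number. Among the other 19720 genes tested, 4 with counts in both replicate 2 libraries differed at least as far and in the same direction in both groups. Genes without counts in a replicate 2 library were left out of the 4, so more genes may differ as far. mt-Nd2, directly upstream, was 1.09-fold higher in replicate 2 in both groups. mt-Ta, the next gene downstream on the opposite strand, had 10 and 0 counts without and 4 and 0 counts with depletion.

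mt-Tq had 1.98 and 1.03 CPM without and 2.33 and 1.22 CPM with depletion, which is 1.92-fold higher in replicate 1 in both groups. mt-Tp had 1.48 and 0.946 CPM without and 1.66 and 1.53 CPM with depletion. Leaving out mt-Tw, the summed tRNA level was 4.23 and 2.87 CPM without and 5.45 and 3.31 CPM with depletion. The excess of replicate 1 over replicate 2 then was 1.47-fold and 1.64-fold in the 2 groups, against 2.77-fold and 2.86-fold with mt-Tw.

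In the sums over classes, the difference between replicate numbers was larger than that between groups. Replicate 2 was above replicate 1 by 1.13-fold in the summed mRNA of the non-depleted and 1.12-fold in that of the insulin-depleted group, and by 1.21-fold in rRNA in both. The 9 genes of the minus strand, which are read from the light-strand promoter and whose counts come almost wholly from mt-Nd6, summed to 445.1 and 355.0 CPM without and 453.4 and 341.7 CPM with depletion, so that replicate 1 was 1.25-fold and 1.33-fold higher. The level per kilobase of mt-Nd5 over that of its opposite-strand neighbour mt-Nd6 was accordingly 2.05 and 2.96 without and 1.99 and 3.08 with depletion.

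Of the 20 mitochondrial genes that passed the low-count filter, 10 were higher in both replicate 2 libraries than in both replicate 1 libraries (against 34.9% of the genes tested outside insulin) and 4 were lower (against 26.7%). The 10 were mt-Rnr1, mt-Rnr2, mt-Nd1, mt-Nd2, mt-Co1, mt-Atp8, mt-Nd4, mt-Nd5, mt-Cytb and mt-Tt, and the 4 were mt-Tq, mt-Tw, mt-Nd3 and mt-Nd6. In log2 units, replicate 2 over replicate 1 was 0.38 in the non-depleted and 0.33 in the insulin-depleted group for mt-Rnr1, 0.27 and 0.26 for mt-Cytb, 0.21 and 0.23 for mt-Nd5, and -0.32 and -0.41 for mt-Nd6. Over the 11595 genes outside insulin that averaged 5 CPM or more, the middle 90% of such log2 ratios ran from -0.35 to 0.43 without and from -0.38 to 0.48 with depletion, so the ratios just given lay inside that spread, apart from that of mt-Nd6 with depletion. mt-Tq and mt-Tw lay below it in both groups. Their means of 1.64 and 2.30 CPM are under 5 CPM, however, and the spread of genes at such levels was not read.

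Markers of the exocrine pancreas moved with the replicate numbers as well. The 22 acinar-cell genes summed to 8114 to 19508 CPM in the non-depleted and 8153 to 19498 CPM in the insulin-depleted libraries, and were 2.40-fold and 2.39-fold higher in replicate 1. All 22 were higher in replicate 1 in both groups (against 31.4% of the genes tested outside insulin), and none was at 0. Ctrb1, a chymotrypsinogen, had 3049 and 1144 CPM without and 3037 and 1144 CPM with depletion. Summed stress and immediate early genes (18 genes) were at 1346 to 1379 CPM without and 1355 to 1388 CPM with depletion, and nuclear-retained long noncoding RNAs (8 genes) at 8224 to 8369 and 8173 to 8273 CPM. The part of acinar RNA in the differences between replicate numbers was not tested.

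**Figure D3:**
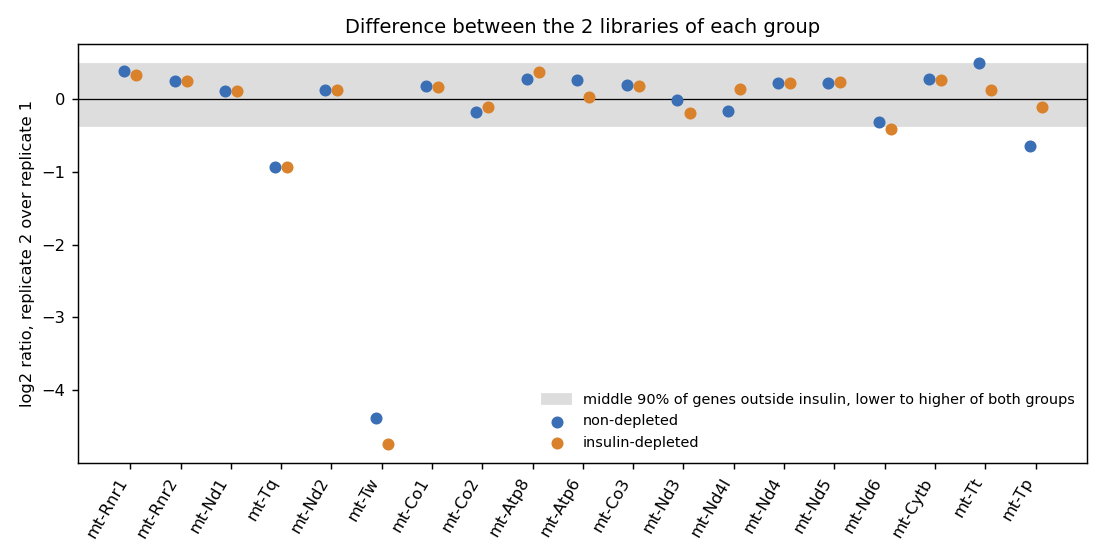
Log2 ratio of replicate 2 over replicate 1 for the 19 mitochondrial genes that were tested and had counts in all 4 libraries, 1 point per group. The shaded band spans the middle 90% of genes outside insulin that averaged 5 CPM or more, taking the lower and the higher bound of the 2 groups (-0.38 to 0.48). mt-Tw (-4.38 and -4.73) and mt-Tq (-0.94 and -0.94) lie below the band in both groups. Their own means (2.30 and 1.64 CPM) are under 5 CPM, so the band does not give the spread of genes at their level.

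Insulin depletion changed no mitochondrial gene past the threshold. In the edgeR quasi-likelihood test over 19723 genes, 0 of the 20 mitochondrial genes tested had an adjusted p under 0.05, where 0.0101% of all genes tested did (2 genes, Ins1 and Ins2). None of the 20 had an unadjusted p under 0.05 either in this fit on group alone. Only 80 of the 19721 genes tested outside insulin did, so a count of 0 among 20 genes is no trait of the members. DESeq2 and limma-voom also gave 0 members by both measures. The error of these fits holds the spread between replicate numbers. With the replicate number as a block in edgeR, 5 members had an unadjusted p under 0.05 and 0 were called. The share of all genes under that p with the block was not counted. The 20 were the 13 mRNAs, the 2 rRNAs and the tRNAs mt-Tl1, mt-Tq, mt-Tw, mt-Tt and mt-Tp, and the other 17 members, all tRNAs, had too few counts. Among the mRNAs, 7 log2 fold changes were above 0 and 6 below it, with a median of 7.6e-04, against a median of -2.5e-03 over the 19721 genes tested outside insulin.

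Log2 fold changes of the 7 high mRNAs lay between -0.04 and 0.01, and the 95% intervals of these and of the rRNAs lay within -0.47 and 0.44. For mt-Co1 the log2 fold change was 0.01 (SE 0.10, 95% interval -0.24 to 0.27), for mt-Nd1 -0.01 (SE 0.08, interval -0.22 to 0.21) and for mt-Rnr2 -0.01 (SE 0.12, interval -0.31 to 0.29). The tRNA intervals were wide: for mt-Tp the log2 fold change was 0.38 (SE 0.35, interval -0.49 to 1.25), and for mt-Tw it was -0.07 with an interval of -5.05 to 4.90.

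**Figure D4:**
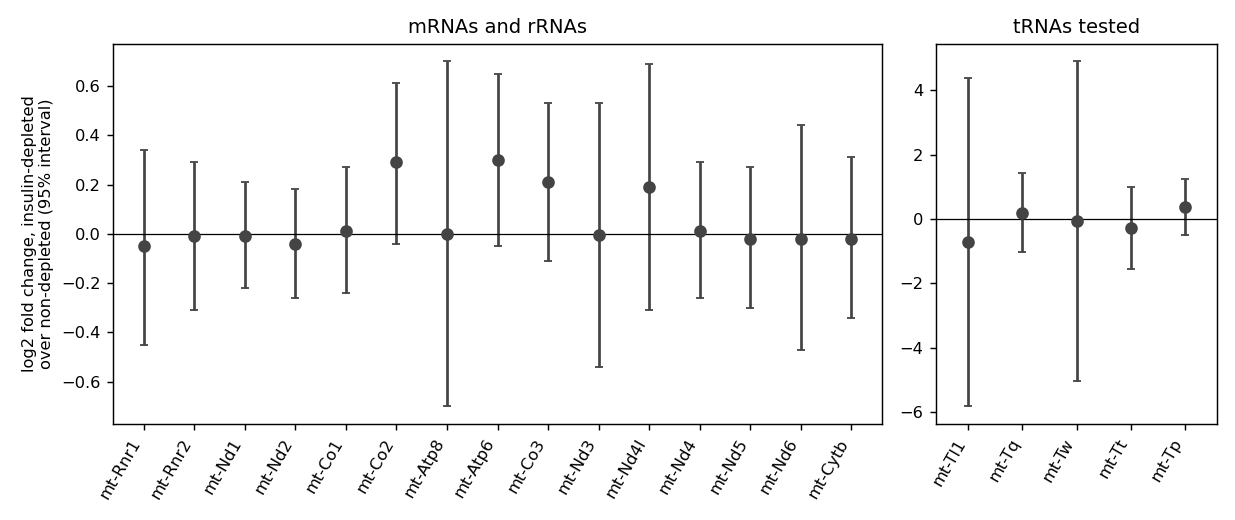
Log2 fold change of insulin-depleted over non-depleted (y axis) with 95% intervals, for 15 mRNAs and rRNAs (left) and the 5 tRNAs tested (right, wider axis). The intervals come from edgeR on group alone and hold the spread between replicate numbers. All intervals include 0, and those of mt-Co2 (-0.04 to 0.61) and mt-Atp6 (-0.05 to 0.65) do so narrowly.

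Without overlap between groups, 5 of the 20 genes tested were above both non-depleted libraries in both insulin-depleted ones (25.0%, against 10.2% of the genes tested outside insulin), and 0 were below (against 9.33%). They were mt-Co2, mt-Atp6, mt-Co3, mt-Nd4l and mt-Tp. The log2 fold change was 0.29 for mt-Co2 (SE 0.13, edgeR unadjusted p = 0.0748, adjusted p = 1.000), 0.30 for mt-Atp6 (SE 0.14, edgeR unadjusted p = 0.0794, adjusted p = 1.000) and 0.21 for mt-Co3 (SE 0.13, edgeR unadjusted p = 0.160, adjusted p = 1.000). The 4 mRNAs of this set belong to the low set, and each shares at least 98.9% of its 31-base stretches with a copy on chromosome 1. These genes are not independent items, since neighbours overlap and reads may pass between a gene and its copy.

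The nuclear genome of the mouse holds pseudogenes copied from mitochondrial DNA, and chromosome 1 carries a long one. On the minus strand of GRCm38, chr1:24611535-24616197 (4663 bases) lines up in order with chrM:6381-11042 (4662 bases), from inside mt-Co1 to inside mt-Nd4. GENCODE M21 annotates 7 unprocessed pseudogenes there: Gm29216 (mt-Co1), Gm28661 (mt-Co2), Gm10925 (mt-Atp6), Gm28437 (mt-Co3), Gm28438 (mt-Nd3), Gm10222 (mt-Nd4l) and Gm28439 (mt-Nd4). Gm28661 matches mt-Co2 at 681 of its 681 bases, Gm10925 matches mt-Atp6 at 678 of 678, Gm28437 matches mt-Co3 at 783 of 783, and Gm10222 matches mt-Nd4l at 294 of 294.

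Where the copies differ, the differences are few. Gm28438 matches mt-Nd3 at 344 of 345 bases, with the substitution T3C counted from the first base of mt-Nd3 (the mitochondrial base first). Gm29216 matches mt-Co1 at 486 of 492 bases, with T1056A, C1057T, A1059G, A1060G, C1062A and A1066T counted from the first base of mt-Co1, and its last 479 bases are identical. The first 60 bases of mt-Nd3 (chrM:9459-9518, plus strand) and Gm28438 (chr1:24613060-24613119, minus strand) are shown with the differing base in capitals, and those of mt-Co2 (chrM:7013-7072, plus strand) and Gm28661 (chr1:24615506-24615565, minus strand) below them, which hold no difference.
mt-Nd3: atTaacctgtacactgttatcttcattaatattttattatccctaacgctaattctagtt
Gm28438: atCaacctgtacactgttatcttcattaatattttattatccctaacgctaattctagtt
mt-Co2: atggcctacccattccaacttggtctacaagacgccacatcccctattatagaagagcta
Gm28661: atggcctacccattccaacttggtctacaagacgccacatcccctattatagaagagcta
A read that lies within such a stretch fits both places equally well, and counts of these genes and of their copies are therefore uncertain.

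The low set of mRNAs and this copy coincide in position. Of the 31-base stretches of each gene, all of mt-Co2, 99.9% of mt-Co3, 99.5% of mt-Atp6, 98.9% of mt-Nd4l and 98.1% of mt-Nd3 also occur in other annotated genes. mt-Co1 and mt-Nd4, which the copy covers only in part, share 63.9% and 62.8% with other annotated genes, and both belong to the high set. For mt-Co1 much of this lies outside chromosome 1. Of its 1515 stretches, Gm29216 holds 449 and a pseudogene on chromosome 2 holds 685. Gm28439 holds 846 of the 1348 stretches of mt-Nd4. For the remaining high mRNAs and the rRNAs the share was 0% (mt-Nd1, mt-Rnr1) to 16.8% (mt-Nd5). mt-Atp8 is low but shares only 7.47%, all of it with the 43 bases of Gm10925, and the remainder of the matching stretch, chr1:24614609-24614812, holds no annotated gene. How the authors' counting treated reads with several matching places is not given in the sources used here, and its part in the low levels was not tested.

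Most of these copies were counted more highly than the genes they match. Gm28661 had 27.1 and 29.3 CPM without and 31.7 and 34.8 CPM with depletion, 1.42 to 1.79 times mt-Co2. Gm10925 had 35.1 and 41.8 CPM without and 44.2 and 53.2 CPM with depletion, 3.26 to 3.85 times mt-Atp6. Gm28437 had 31.8 and 36.4 CPM without and 41.1 and 43.3 CPM with depletion, 2.15 to 2.40 times mt-Co3. In these 3 copies both insulin-depleted libraries were above both non-depleted ones, as in the mitochondrial genes they match. Gm10222 was counted at 10.5 to 11.5 CPM, 2.34 to 2.78 times mt-Nd4l, and its groups overlapped. Gm28438, named here for its place in the run after its level of 2.53 to 3.16 CPM was seen, stayed at 0.742 to 0.981 times mt-Nd3, and both of its insulin-depleted values (3.01 and 3.16 CPM) were above the non-depleted ones (2.76 and 2.53 CPM), where those of mt-Nd3 overlapped.

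For the low genes with an annotated chromosome 1 pseudogene, the counts of gene and copy were also added. mt-Co2 with Gm28661 came to 45.8 and 45.7 CPM without and 54.2 and 55.4 CPM with depletion. mt-Atp6 with Gm10925 came to 45.2 and 53.9, then 57.7 and 67.1 CPM, and mt-Co3 with Gm28437 to 46.6 and 53.3, then 58.2 and 62.8 CPM. In these 3 sums both insulin-depleted libraries had to be above both non-depleted ones, because gene and copy each were, so the sums add nothing to that. mt-Nd4l with Gm10222 came to 15.1 and 14.6 CPM without and 15.0 and 16.4 CPM with depletion, and the groups overlapped. mt-Nd3 with Gm28438 came to 6.23 and 5.94, then 6.69 and 6.38 CPM, without overlap. In edgeR the log2 fold change was 0.34 for Gm10925 (SE 0.13, unadjusted p = 0.0448, adjusted p = 1.000), 0.30 for Gm28437 (SE 0.10, unadjusted p = 0.0288, adjusted p = 1.000) and 0.24 for Gm28661 (SE 0.10, unadjusted p = 0.0653, adjusted p = 1.000), and none passed the threshold in this fit on group alone.

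The copies of genes in the high set were low beside them. Gm28439 had 15.2 and 18.9 CPM without and 19.2 and 21.6 CPM with depletion, at most 0.0194 times mt-Nd4, and its groups did not overlap, where those of mt-Nd4 did. Gm29216 had 13.5 and 30.0 CPM without and 15.7 and 34.2 CPM with depletion, at most 0.00379 times mt-Co1. Gm29216 was thus 2.21-fold and 2.17-fold higher in replicate 2, where mt-Co1 was 1.12-fold higher in both groups, and its insulin-depleted and non-depleted values overlapped. In all, 5 of the 7 copies were higher in both insulin-depleted libraries without overlap (against 10.2% of the genes tested outside insulin), and for 3 of these 5 the mitochondrial gene was too.

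**Figure D5:**
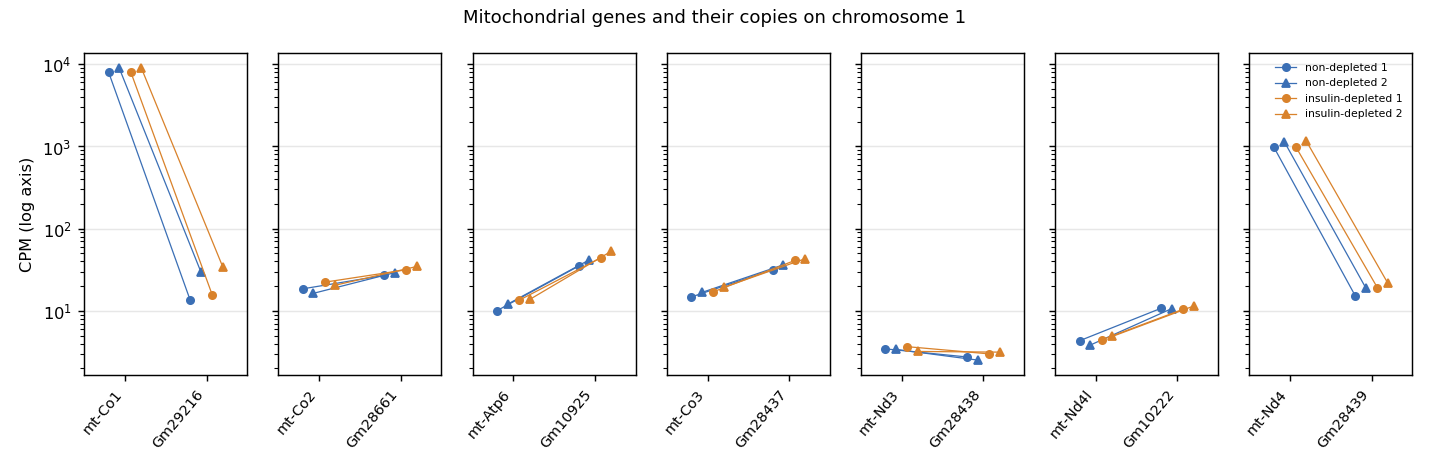
CPM (log axis) of 7 mitochondrial genes, left in each panel, and of the chromosome 1 pseudogene that matches each, right, with a line per library. The copies of mt-Co2, mt-Atp6, mt-Co3 and mt-Nd4l lie above the gene in every library, and those of mt-Co1 and mt-Nd4 far below it.

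Nuclear genes that serve mitochondrial gene expression showed no called difference either. In edgeR, 0 genes in either direction passed the threshold in the lists for mitochondrial transcription (7 genes tested, median log2 fold change 0.07), RNA processing, polyadenylation and decay (21, median 0.02), DNA replication and upkeep (14, median 0.02), rRNA modification (12, median -0.03), tRNA modification (16, median -0.04) and aminoacyl-tRNA synthetases (17, median 0.01). In this fit on group alone none of their genes had an unadjusted p under 0.05, where only 80 of the 19721 genes tested outside insulin did. Tfam, which packages mitochondrial DNA and starts its transcription, had 42.8 and 37.3 CPM without and 44.1 and 39.4 CPM with depletion. Lrpprc, which stabilises mitochondrial mRNAs, had 104.3 and 97.8 CPM, then 101.9 and 93.2 CPM, and Grsf1, of the RNA granules where transcripts are processed, had 169.3 and 174.3 CPM, then 183.2 and 180.2 CPM.

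The nuclear subunits of complexes I, III, IV and V (72 genes tested) likewise gave 0 calls in either direction. In the fit on group alone none had an unadjusted p under 0.05, where only 80 of the 19721 genes tested outside insulin did. Of their log2 fold changes, 20 were above 0 and 52 below it, with a median of -0.05. They summed to 5149 and 4814 CPM without and 5064 and 4747 CPM with depletion, so replicate 1 was 1.07-fold higher in both groups, opposite to the mitochondrial mRNAs. In both groups 47 of these 72 genes were higher in replicate 1 (against 31.4% of the genes tested outside insulin) and 10 in replicate 2 (against 40.3%). Atp5b and Atp5a1, subunits of the catalytic head of the ATP synthase, had 457.2 to 469.8 and 457.9 to 473.2 CPM.

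Among the synthetases, Lars2, which charges the mitochondrial leucine tRNAs, stood out between replicate numbers. It had 539.8 and 914.8 CPM without and 503.3 and 898.0 CPM with depletion, and it gave most of the summed level of its list (848.9 and 1235 CPM, then 822.0 and 1218 CPM). Iars2, which charges isoleucine tRNA, had 79.9 and 83.2 CPM without and 81.9 and 85.5 CPM with depletion.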

How the data were processed

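The values are raw gene counts, whole numbers that the authors deposited without normalization. An automated unit check read a word in the headers of the non-depleted columns as a size, and only for that reason are these deposited columns listed under estimated counts; they hold whole numbers and rounding changed nothing. The submitters' processing notes name cutadapt 4.8, STAR 2.7.11b and the builds GRCm38 and mm10 (1 assembly) without roles; for the counting program, its strand setting and multi-mapped reads, nothing is given in the sources used here. No row lacked a gene name, and all 55536 identifiers matched GENCODE M21 of GRCm38, which gave coordinates, lengths and sequences.

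Counts of the 4 libraries were fitted with edgeR 4.0.16 in R 4.3.3 (filterByExpr, TMM, robust quasi-likelihood F-test on group alone) over the whole table, with Benjamini-Hochberg adjustment and a threshold of 0.05. The biological coefficient of variation was 17.1%. Calls from simulated counts were checked first. DESeq2 1.42.0 and limma 3.58.1 (voom) were alternatives. For shares, exact permutation tests (two-sided) were used. Each gene's stretches of 31 bases were searched on both strands of all other annotated transcripts; 50% shared was the limit for a copied gene. All mt- genes could be named, with the 2 most abundant genes of each list and chromosome copies of at least 5 CPM with at least 50% of their stretches in the mitochondrial genome. The members and lists were chosen with earlier results of these data known.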

Additional observations from a re-analysis of the deposited data

How the results depend on the processing

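No mitochondrial gene was called under DESeq2, limma-voom, RLE scaling, plain totals, no low-count filter, the replicate block or with any 1 library left out. Of 120 log2 fold changes under the 6 other settings, 116 kept their sign and 4 turned: mt-Tw to 0.04 (DESeq2), mt-Atp8 to -2.3e-03 (no filter) and -0.01 (replicate block), mt-Nd3 to 2.3e-04 (no TMM); these genes' main values were near 0, and the cause was not tested. The mitochondrial share of counts outside insulin was 0.00177 percentage points higher with depletion. This difference was -0.0111 without the genes that share most stretches, and -0.132 to 0.136 with a library left out. With Ins1 and Ins2 kept in the total it was 0.0853 points (2.10% without and 2.19% with depletion). The mRNA share difference was -0.0146 on counts per kilobase and -0.0937 to 0.199 with a library left out; rRNA ranged from -0.218 to 0.104 and tRNA from -0.0124 to 0.0210. Leaving out a library turned the sign of 14 of 20 genes, with ranges of -0.22 to 0.14 (mt-Rnr1), -0.13 to 0.11 (mt-Rnr2), -1.52 to 0.94 (mt-Tl1), -0.04 to 0.03 (mt-Nd1), -0.32 to 0.75 (mt-Tq), -0.09 to 0.01 (mt-Nd2), -3.73 to 3.41 (mt-Tw), -0.06 to 0.09 (mt-Co1), -0.20 to 0.14 (mt-Atp8), -0.11 to 0.11 (mt-Nd3), -0.09 to 0.11 (mt-Nd4), -0.12 to 0.08 (mt-Nd5), -0.25 to 0.18 (mt-Nd6) and -0.14 to 0.12 (mt-Cytb); it did not for mt-Co2 (0.19 to 0.40), mt-Atp6 (0.19 to 0.43), mt-Co3 (0.12 to 0.29), mt-Nd4l, mt-Tt or mt-Tp. With 1 library left in a group, its spread is taken from the other group. No source states that same-numbered libraries share RNA; their deviations correlated at 0.85 over 11552 genes. With the replicate block, 9 genes were called in all (2 without it), 0 of them members, though 5 members had an unadjusted p under 0.05. By log2 fold change, mt-Rnr1 (-0.06) and mt-Nd2 (-0.04) were lower, and mt-Co2 (0.30), mt-Atp6 (0.29) and mt-Co3 (0.20) higher. The share of all genes under that p in this fit was not counted, so the 5 cannot be called an excess. The block called Gm10925 (log2 fold change 0.34, adjusted p = 5.45e-05) and Gm28437 (0.30, adjusted p = 0.00864), both edgeR. The number of mitochondrial genes with most stretches shared was 7 at 31, 21 and 51 bases and 6 at 75. The 17 tRNAs with too few counts to be tested had at most 21 counts over the 4 libraries. The parts of depth and of the capture of polyadenylated RNA in this were not tested.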

Other observations

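Weaker copies of mitochondrial genes lie outside chromosome 1 and were named after their values were seen. On chromosome 2, 45.2% of the 31-base stretches of Gm13340 occur in the mitochondrial genome, all in mt-Co1, and it had 13.5 to 17.0 CPM over the 4 libraries. Gm13341, beside it, matches mt-Co2 in part (48.0% of its stretches) and had 1.76 to 2.92 CPM. Gm4076 on chromosome 13, with 24.6% of its stretches in mt-Nd5, had 0.660 to 1.03 CPM, while mt-Nd5 had 3135 to 3675 CPM.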
